A study of Mus musculus with 16 samples.

Results

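Calpains are cysteine proteases of the cytosol that are switched on by calcium and cut their targets at a few sites rather than degrading them. The 8 calpain genes described here were Capn1, Capn2, Capn5, Capn7, Capn8, Capn9 and Capn10, which encode catalytic chains, and Capns1, which encodes the common small subunit. They were taken by symbol from the table of read counts, which held 21442 genes, and all 8 were measured in every library. The members were chosen by their CPM in the 4 sorted groups, the same values that are given below, so these values are a description and no test is given for any of the 8. Capn8 and Capn9 are known as the gut calpains. The libraries hold colon epithelium alone, so whether either gene is restricted to the gut cannot be read from them.

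The distal colon of mice aged 6–8 weeks was dissociated, and RNA of the sorted epithelial cells was sequenced. All mice carried the RedMUC298trTg reporter, in which mCherry is fused to part of the human mucin MUC2, and goblet cells (GC) were the mCherry-positive cells. The mCherry-negative epithelial cells (EC), labelled colonocytes, hold every epithelial cell outside that gate. Libraries labelled SpdefKO came from reporter mice also labelled as lacking Spdef, a transcription factor of goblet cell maturation, and libraries labelled WT from reporter mice without that label. The 4 groups, SpdefKO_GC with WT_GC and SpdefKO_EC with WT_EC, held 4 libraries each, named here by their library numbers. Whether each library of a group is a separate mouse is not labelled, nor is whether GC and EC libraries came from the same mice, and the p-values therefore cover the spread among libraries, part of which may be technical. In sorted bulk RNA, fewer cells of a type and less RNA per cell cannot be told apart. Lysates of GC and EC were also purified on different columns, and this cannot be told apart from the cell type.

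Values are counts per mega-count of gene counts (CPM), given as mean ± SD with n = 4 unless each library is listed. Libraries held 10085637 to 17111987 gene counts. Spdef averaged 385 ± 69.6 CPM in SpdefKO_GC and 306 ± 19.03 CPM in WT_GC, and 2.04 ± 0.926 CPM in SpdefKO_EC and 2.65 ± 0.848 CPM in WT_EC. Spdef was therefore no lower in the goblet cell libraries labelled SpdefKO (log2 0.33, adjusted p = 0.116 by the edgeR quasi-likelihood test), and every genotype comparison rests on the labels. Muc2, the main mucin of the colon, averaged 13010 ± 1580 CPM in SpdefKO_GC and 12480 ± 614 CPM in WT_GC. The summed goblet markers ran over 55912–66552 CPM in SpdefKO_GC and 50106–57083 CPM in WT_GC, against 472–519 CPM in SpdefKO_EC and 529–728 CPM in WT_EC. The summed absorptive markers ran over 882–1113 CPM in SpdefKO_GC and 488–613 CPM in WT_GC, against 8172–10090.0 CPM in SpdefKO_EC and 9023–9870.5 CPM in WT_EC. Both fractions therefore carried their labelled marker genes, and no listed marker was at 0 in any whole group. The sums of 4 other lists were also higher in SpdefKO_GC without overlap. The enteroendocrine markers ran over 199.99–287 CPM in SpdefKO_GC and 81.0–116 CPM in WT_GC, and the proliferation markers over 1173–1901 CPM in SpdefKO_GC and 753–1072 CPM in WT_GC. The immune markers ran over 6.20–6.79 CPM in SpdefKO_GC and 3.56–3.62 CPM in WT_GC, and the stromal markers over 0.790–1.60 CPM in SpdefKO_GC and 0.234–0.456 CPM in WT_GC. Itgam led the immune sum, with 4.52 ± 0.529 CPM in SpdefKO_GC and 1.85 ± 0.263 CPM in WT_GC. Ptprc was at 1.55 ± 0.501 and 1.66 ± 0.272 CPM, and the other immune markers averaged at most 0.190 CPM in GC. The stromal sums rest on few reads, for Col1a1 41 counts over SpdefKO_GC and 10 over WT_GC. The part of cells with any of these markers in the differences between SpdefKO_GC and WT_GC below, those of Capn2, Capn9, Capns1 and Cast included, was not tested.

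Capn1 and Capn2 are the large subunits of the ubiquitous mu- and m-calpains. Each works as a dimer with Capns1, and both dimers are held in check by the inhibitor calpastatin (Cast). Capn8 and Capn9 are found mainly in the lining of the stomach and intestine, where in mice they form a complex that protects the gastric mucosa. Capn5, Capn7 and Capn10 are atypical calpains without the calcium-binding domain through which the classical ones bind the small subunit.

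On GRCm38 the members lie on 5 chromosomes. Capn9 spans chr8:124576111-124618731 on the plus strand, Capn8 spans chr1:182565007-182632352 on the plus strand and Capn2 spans chr1:182467260-182517608 on the minus strand. Capn10 is at chr1:92934376-92947941 (plus), Capn5 at chr7:98121559-98178274 (minus), Capns1 at chr7:30186936-30198811 (minus), Capn7 at chr14:31336638-31371986 (plus) and Capn1 at chr19:5988545-6015897 (minus).

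The start regions of 3 members are shown because Capn8 and Capn9 were both higher in goblet cells, while Capn2, the neighbour of Capn8 on chromosome 1, was lower there. Capn2 and Capn8 point away from each other, and their starts are 47.4 kb apart. Each sequence is the RefSeq promoter window of GRCm38.p6, reaching from 250 bases before the annotated start to 50 bases after it, written 5′ to 3′ on the strand of the gene. The windows lie at chr8:124575861-124576160 on the plus strand for Capn9, at chr1:182564757-182565056 on the plus strand for Capn8 and at chr1:182517561-182517860 on the minus strand for Capn2. Capitals mark a match to CCGGAT or its reverse complement ATCCGG, the core bound by SPDEF in vitro.
Capn9 promoter: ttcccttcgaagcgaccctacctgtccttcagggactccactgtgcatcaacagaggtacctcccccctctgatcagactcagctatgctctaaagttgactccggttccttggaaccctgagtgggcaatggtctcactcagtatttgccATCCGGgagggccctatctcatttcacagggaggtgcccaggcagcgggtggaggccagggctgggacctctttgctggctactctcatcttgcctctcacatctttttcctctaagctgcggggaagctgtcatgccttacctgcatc
Capn8 promoter: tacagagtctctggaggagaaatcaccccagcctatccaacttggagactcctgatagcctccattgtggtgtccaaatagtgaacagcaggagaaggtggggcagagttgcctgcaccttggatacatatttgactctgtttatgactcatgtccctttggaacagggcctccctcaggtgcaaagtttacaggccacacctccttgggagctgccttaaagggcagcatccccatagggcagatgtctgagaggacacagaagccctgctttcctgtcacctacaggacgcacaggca
Capn2 promoter: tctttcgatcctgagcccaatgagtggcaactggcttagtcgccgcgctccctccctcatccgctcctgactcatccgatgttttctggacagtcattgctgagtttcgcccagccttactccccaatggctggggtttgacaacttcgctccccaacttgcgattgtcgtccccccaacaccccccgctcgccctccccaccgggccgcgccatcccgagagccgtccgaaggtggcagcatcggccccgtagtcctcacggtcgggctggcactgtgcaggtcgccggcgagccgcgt

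The Capn9 window held 1 match, ATCCGG, beginning 99 bases before the start. Over all 32851 windows, 6.04% held CCGGAT on either strand. The windows of Capn8 and Capn2 held none of the 6 motifs searched on both strands. Besides the SPDEF core these were the ETS core CCGGAA (in 14.9% of all windows), the CDX-type site TTTATNG (10.9%), the GC box GGGCGG (35.7%), the stress-response core GACGTG (6.38%) and the TATA box TATAAA (13.6%). The 3 windows differed in base composition. Capn2 had 27 CpG dinucleotides and 64.3% G and C, Capn9 had 6 and 56.0%, and Capn8 had 1 and 52.7%, against medians of 7 and 52.7% over all windows. Of the 8 members 7 had a window in the table. A match is a string of letters and not a shown binding site.

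Capn9 marked the goblet cell fraction more sharply than the other 7 members. Its level was 149.5, 174, 139 and 147 CPM in SpdefKO_GC libraries 3, 5, 7 and 19, and 112, 94.6, 122 and 99.9 CPM in WT_GC libraries 9, 11, 13 and 18. In EC it was 0.424, 0.439, 0.429 and 0.198 CPM in SpdefKO_EC libraries 4, 6, 8 and 20, and 0.435, 0.8294, 0.655 and 0.502 CPM in WT_EC libraries 10, 12, 14 and 17. Every GC library was thus far above every EC library, and every SpdefKO_GC library was above every WT_GC library. The fitted difference between GC and EC was 8.46 ± 0.17 on the log2 scale (351-fold; standard error) in SpdefKO and 7.39 ± 0.16 (168-fold) in WT. In the order of all 12915 tested genes from highest to lowest in GC, Capn9 stood 12th in SpdefKO and 28th in WT. Between SpdefKO_GC and WT_GC its log2 difference was 0.50 ± 0.10 (1.42-fold), and between SpdefKO_EC and WT_EC it was -0.56 ± 0.34. The EC levels rest on few reads, 23 counts over SpdefKO_EC and 34 counts over WT_EC, against 8808 over SpdefKO_GC and 6206 over WT_GC.

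The small amount of Capn9 RNA in EC was of the size seen for goblet cell products. The EC level was 0.245% of the GC level in SpdefKO and 0.565% in WT. For Muc2 the same share was 0.206% in SpdefKO and 0.380% in WT, and for Fcgbp, a mucus component, 0.261% and 0.478%. Over the 7 goblet markers the share ran from 0.206% for Muc2 to 4.78% for Agr2 in SpdefKO, and from 0.380% to 4.81% for the same genes in WT. Set against Muc2, there were 11.8 ± 1.1 CPM of Capn9 per 1000 CPM of Muc2 in SpdefKO_GC and 8.63 ± 1.38 in WT_GC, against 14.9 ± 6.44 in SpdefKO_EC and 13.4 ± 5.97 in WT_EC. Whether the EC reads of Capn9 come from goblet cells left in that fraction was not tested.

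Capn8, the other gut calpain, was also higher in GC but not absent from EC. It was at 55.9, 68.2, 67.7 and 61.6 CPM in SpdefKO_GC and at 65.1, 61.9, 65.6 and 65.9 CPM in WT_GC. EC levels were 7.81, 11.2, 7.36 and 11.1 CPM in SpdefKO_EC and 12.3, 14.6, 15.4 and 13.4 CPM in WT_EC. The GC libraries of the genotypes overlapped and all lay above all EC libraries, and every SpdefKO_EC library was below every WT_EC library. The difference between GC and EC was 2.64 ± 0.12 on the log2 scale (6.25-fold) in SpdefKO and 2.14 ± 0.12 (4.41-fold) in WT. The EC level was 14.8% of the GC level in SpdefKO and 21.5% in WT, above the share of each of the 7 goblet markers. Between SpdefKO_EC and WT_EC Capn8 had a log2 difference of -0.54 ± 0.13. The goblet markers went the same way there, with 4 of 7 lower and 0 higher (Muc2, Clca3, Fcgbp and Spink4 by the edgeR test). So did 4 of 5 tuft markers and 4 of 6 enteroendocrine markers. Of all tested genes 6.54% were lower and 6.09% higher. Of 8 absorptive markers 2 were lower and 2 higher, of 4 proliferation markers 0 and 2, and of 3 stem markers 1 and 0. The part of cells with any of these markers in the Capn8 difference was not tested.

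**Figure D1:**
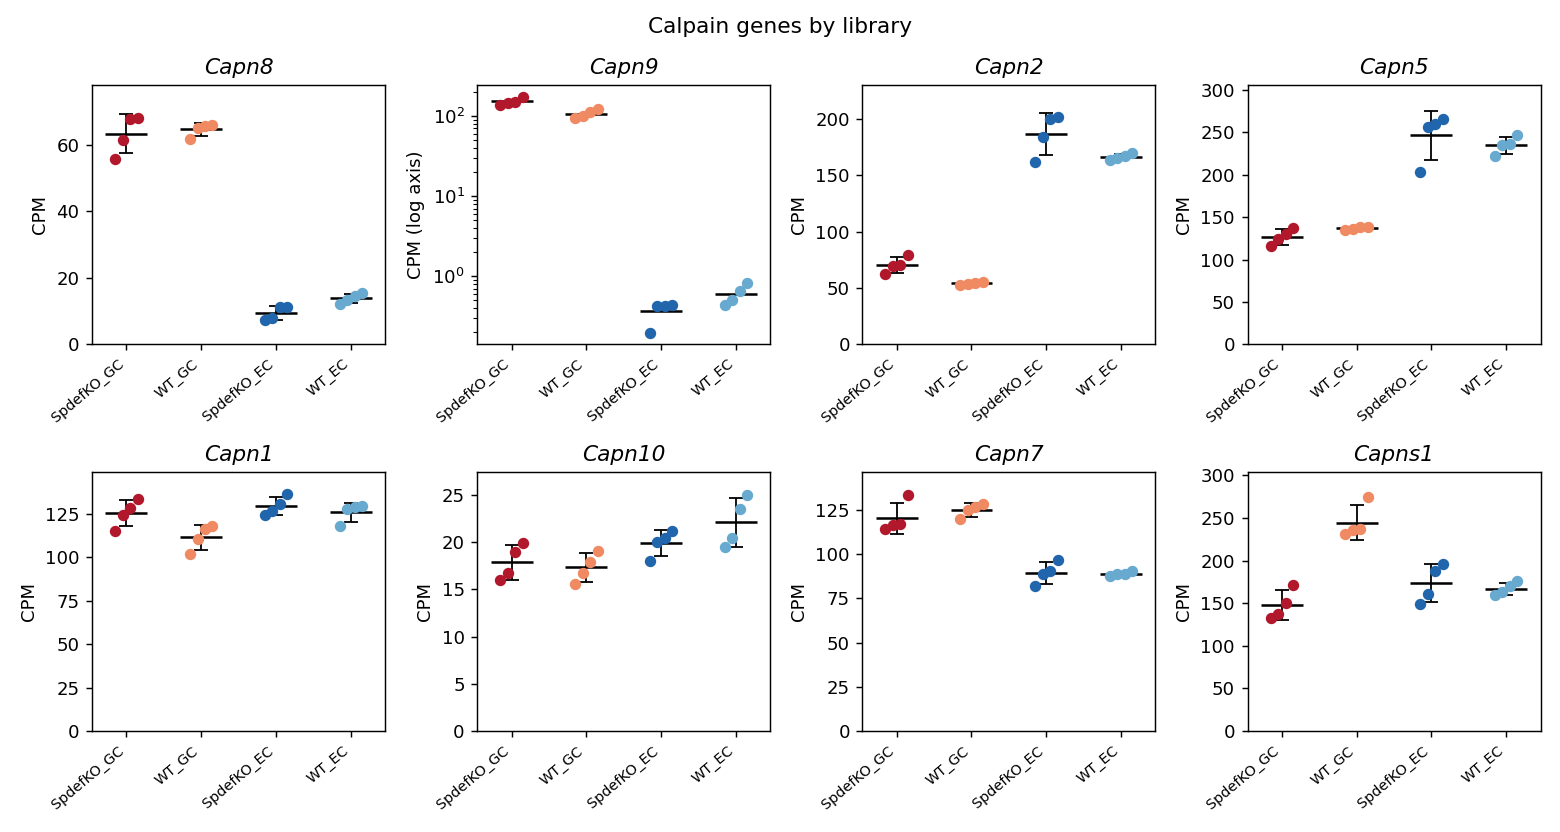
Each point is the CPM of 1 library, each line the mean of the 4 libraries of a group and each bar ± 1 SD, on linear axes from 0 except for Capn9, which is on a log axis without bars. Capn9 in GC sits at 94.6 to 174 CPM against 0.198 to 0.8294 CPM in EC, and Capns1 stands higher in WT_GC (231 to 274 CPM) than in the other groups.

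Capn2, the large subunit of m-calpain, had the opposite pattern. It was at 70.6, 62.6, 69.1 and 79.3 CPM in SpdefKO_GC and at 55.6, 54.7, 52.9 and 53.2 CPM in WT_GC. In EC it was at 184, 162, 202 and 199 CPM in SpdefKO_EC and at 165, 169.7, 167 and 163 CPM in WT_EC. All GC libraries lay below all EC libraries, and within GC all SpdefKO libraries lay above all WT libraries. The difference between GC and EC was -1.53 ± 0.08 on the log2 scale in SpdefKO and -1.70 ± 0.08 in WT, which makes Capn2 2.90-fold and 3.24-fold lower in GC. Between SpdefKO_GC and WT_GC it was 0.37 ± 0.08. The summed absorptive markers were also higher in SpdefKO_GC than in WT_GC, without overlap. By the edgeR test 6 of the 8 passed as higher, beside 10.4% of all tested genes. So did 6 of 6 enteroendocrine, 2 of 4 proliferation, 2 of 7 goblet and 1 of 2 tested immune markers. Lower were 1 of 7 goblet and 1 of 3 stem markers. The part of cells with any of these markers in the Capn2 difference was not tested.

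Capn1, the large subunit of mu-calpain, differed little between the groups. It was at 129, 134, 115 and 124 CPM in SpdefKO_GC and at 102, 118, 116 and 111 CPM in WT_GC. The EC libraries held 137, 131, 127 and 125 CPM in SpdefKO_EC and 129, 118, 128 and 129 CPM in WT_EC. GC and EC libraries overlapped in SpdefKO, and in WT the highest GC value and the lowest EC value both rounded to 118 CPM. The difference between GC and EC was -0.17 ± 0.06 on the log2 scale in SpdefKO and -0.25 ± 0.06 in WT. With upper-quartile scaling the SpdefKO value became -0.06.

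Capns1, the small subunit that both large subunits need, was the member whose genotype difference was largest in GC. Its level was 172, 133, 149.7 and 137 CPM in SpdefKO_GC and 231, 236, 274 and 237 CPM in WT_GC. The EC levels were 188, 149, 196 and 161 CPM in SpdefKO_EC and 176, 159.5, 169.7 and 163 CPM in WT_EC. WT_GC stood above the other groups without overlap, while SpdefKO_GC lay within or below the range of both EC groups. The difference between SpdefKO_GC and WT_GC was -0.73 ± 0.09 on the log2 scale, a level of 0.601 times that in WT_GC, and Capns1 was the 396th lowest of the 12915 tested genes. Between SpdefKO_EC and WT_EC the difference was 0.10 ± 0.09. Capns1 thus differed between GC and EC by -0.36 ± 0.09 in SpdefKO and by 0.47 ± 0.09 in WT, with opposite signs.

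The ratio of Capns1 RNA to the RNA of Capn1 and Capn2 therefore differed between the groups. On the scale of CPM per kb of merged exons, where genes of different length can be set side by side, the ratio of Capns1 to the sum of Capn1 and Capn2 was 1.23 ± 0.158 in SpdefKO_GC and 2.36 ± 0.166 in WT_GC. It was 1.03 ± 0.103 in SpdefKO_EC and 1.06 ± 0.0303 in WT_EC. The WT_GC libraries ran from 2.17 to 2.57, above the highest SpdefKO_GC library at 1.397. With the longest transcript as the length the ratio was 1.47 in SpdefKO_GC and 2.87 in WT_GC, with both EC groups lower. For this ratio the order of the groups thus did not depend on the length used. The sum left out Capn8 and Capn9. Capn9 had 63.1 CPM per kb in SpdefKO_GC and 44.4 in WT_GC, against 0.154 in SpdefKO_EC and 0.251 in WT_EC. Ratios with Capn9 in the sum were not computed, so the order holds for Capn1 and Capn2 alone.

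**Figure D2:**
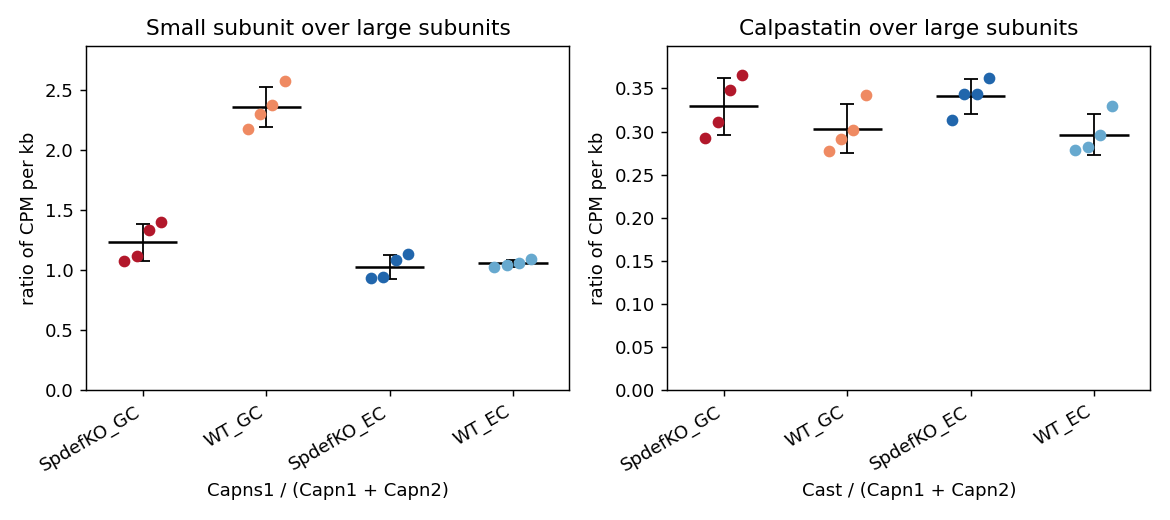
Points are the ratio of CPM per kb in each library, lines the mean and bars ± 1 SD of 4 libraries, for Capns1 (left) and for Cast (right) over the sum of Capn1 and Capn2. The Capns1 ratio is highest in WT_GC (2.17 to 2.57), whereas the Cast ratio stays between 0.277 and 0.365 in all 16 libraries with merged exons as the length. Capn8 and Capn9, both higher in GC, are not in the sum, and ratios with them were not computed.

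Calpastatin is no member of the 8, so tests are given, but it too was listed with earlier results of these data known. Cast averaged 183 ± 13.9 CPM in SpdefKO_GC and 145 ± 7.53 CPM in WT_GC, and 267 ± 24.3 CPM in SpdefKO_EC and 217 ± 13.1 CPM in WT_EC. It was lower in GC than in EC in SpdefKO (log2 -0.67 ± 0.08, adjusted p = 7.25e-07 by edgeR) and in WT (log2 -0.66 ± 0.08, adjusted p = 8.94e-07). It was higher in SpdefKO_GC than in WT_GC (log2 0.33 ± 0.08, adjusted p = 0.00731) and in SpdefKO_EC than in WT_EC (log2 0.34 ± 0.08, adjusted p = 0.00966). The interaction, the genotype difference in GC less that in EC, was -0.01 (adjusted p = 0.958). Per kb, the ratio of Cast to Capn1 plus Capn2 was 0.329 ± 0.0333 in SpdefKO_GC and 0.303 ± 0.0284 in WT_GC, and 0.341 ± 0.0199 in SpdefKO_EC and 0.296 ± 0.0237 in WT_EC. The size of this ratio and the order of the groups depended on the length. With the longest transcript it was 0.568 in SpdefKO_GC and 0.532 in WT_GC, and 0.517 in SpdefKO_EC and 0.455 in WT_EC, so that SpdefKO_EC moved to below both GC groups. Single libraries then ran from 0.430 to 0.625. Cast shares exon sequence with Erap1 on the other strand, and no source used here gives the strand setting of the counting, so its level is uncertain.

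Capn5, an atypical calpain of many tissues that in humans is mutated in an inherited eye inflammation, was lower in GC. It was at 131, 137, 116 and 124 CPM in SpdefKO_GC and at 138, 136, 135 and 138 CPM in WT_GC. Levels in EC were 256, 259, 266 and 203 CPM in SpdefKO_EC and 222, 246, 236 and 235 CPM in WT_EC. All GC libraries were below all EC libraries, and the genotypes overlapped in both fractions. The difference between GC and EC was -1.08 ± 0.08 on the log2 scale in SpdefKO and -0.86 ± 0.08 in WT.

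Capn7, which binds ESCRT-III proteins of membrane remodelling, was modestly higher in GC. It was at 117, 116, 133 and 114 CPM in SpdefKO_GC and at 119.6, 125, 128 and 127 CPM in WT_GC. EC libraries were at 90.3, 81.7, 88.8 and 96.6 CPM in SpdefKO_EC and at 88.9, 87.7, 90.2 and 88.9 CPM in WT_EC. GC and EC did not overlap in either genotype, and the genotypes overlapped in both fractions. The difference between GC and EC was 0.30 ± 0.06 on the log2 scale in SpdefKO and 0.41 ± 0.06 in WT. Capn7 shares exon sequence with Sh3bp5 on the other strand, which leaves its level uncertain.

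Capn10, known from human genetic studies of diabetes, was the least abundant member in GC per kb. It was at 18.9, 19.9, 16.7 and 15.98 CPM in SpdefKO_GC and at 17.9, 16.7, 19.1 and 15.6 CPM in WT_GC. In EC it was at 20.5, 19.96, 21.2 and 17.95 CPM in SpdefKO_EC and at 23.5, 19.5, 20.4 and 24.9 CPM in WT_EC. GC lay below EC without overlap in WT, whereas the ranges overlapped in SpdefKO. The difference between GC and EC was -0.28 ± 0.10 on the log2 scale in SpdefKO and -0.43 ± 0.10 in WT. With upper-quartile scaling these values became -0.17 and -0.34. Capn10 shares exon sequence with 9430060I03Rik on the other strand and is uncertain for the same reason as Capn7.

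Set side by side, the fitted log2 differences of the 8 members ran in both directions. They are a description, and the comparisons share groups of libraries and are not independent of each other. In SpdefKO_GC against SpdefKO_EC 3 members had values above 0 and 5 below, and in WT_GC against WT_EC 4 were above 0 and 4 below. Capns1 is the member whose direction differed between these lists. In SpdefKO_GC against WT_GC Capn9 and Capn2 had the highest values and Capns1 the lowest, and the other 5 lay between -0.11 and 0.16. In SpdefKO_EC against WT_EC Capn8 and Capn9 had the lowest values, and the other 6 lay between -0.11 and 0.21. The interaction is the GC genotype difference minus the EC one. Its log2 value was -0.83 ± 0.13 for Capns1, 1.07 ± 0.35 for Capn9 and 0.50 ± 0.17 for Capn8, and it lay between -0.23 and 0.16 for the other 5. Median log2 values of the members were -0.23 for GC against EC in SpdefKO, 0.08 for GC against EC in WT, 0.00220 for SpdefKO_GC against WT_GC and 0.06 for SpdefKO_EC against WT_EC, beside 0.0313, 0.0508, 0.00138 and 0.00501 over all 12915 tested genes.

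**Figure D3:**
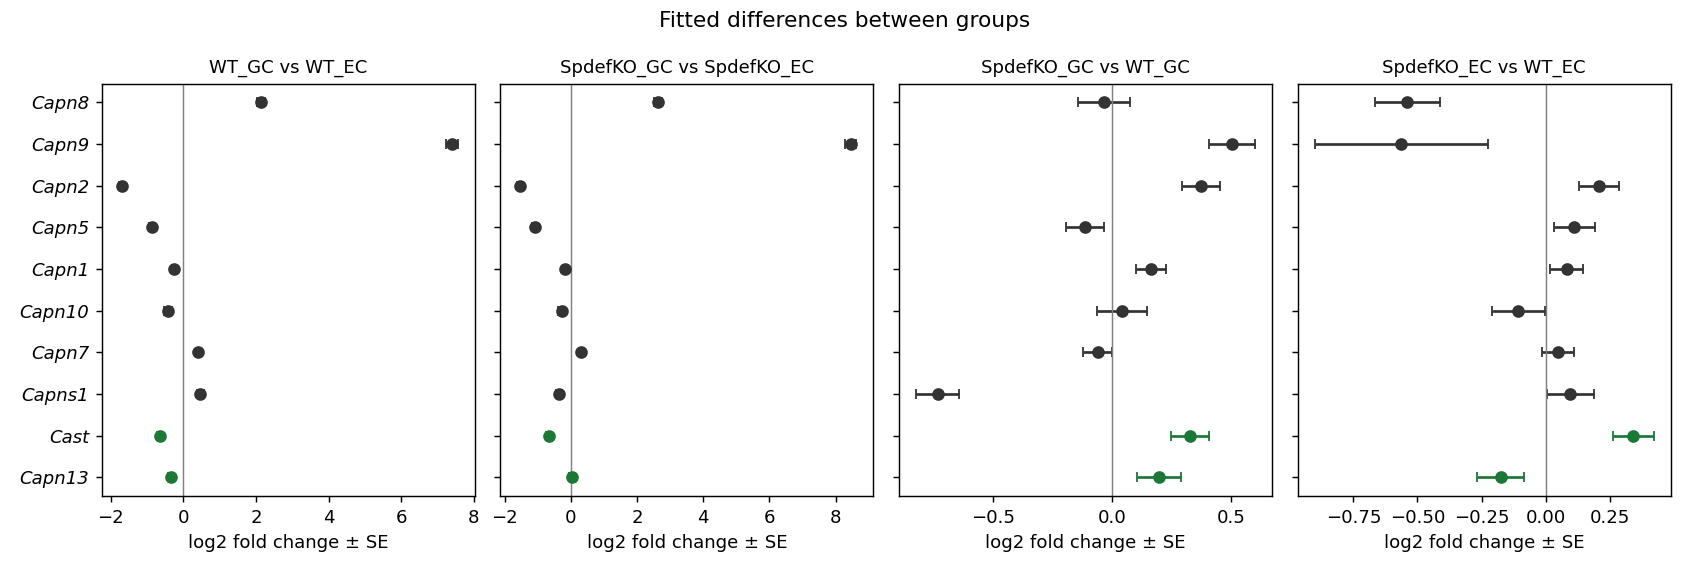
Points are fitted log2 fold changes and bars ± 1 standard error for the 8 members (black) and for Cast and Capn13 (green), in the 4 comparisons named above the panels, whose axes differ in range. Capn9 (8.46 in SpdefKO and 7.39 in WT) and Capn8 stand to the right for GC against EC, Capn2 and Capn5 to the left, and Capns1 has opposite signs in SpdefKO (-0.36) and WT (0.47).

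Per kb of merged exons, the order of the members differed between the fractions. In SpdefKO_GC Capn9 (63.1 ± 6.27 CPM per kb) and Capns1 (59.7 ± 6.995) led and overlapped between libraries, followed by Capn1 (37.5), Capn7 (24.6), Capn5 (23.1), Capn8 (16.8), Capn2 (11.1) and Capn10 (4.11). In WT_GC Capns1 (98.7 ± 8.13) was above Capn9 (44.4 ± 5.08), followed by Capn1 (33.4), Capn7 (25.5), Capn5 (25.0), Capn8 (17.2), Capn2 (8.53) and Capn10 (3.98). Capn7 and Capn5 overlapped in both GC groups. In SpdefKO_EC Capns1 (70.0) led, followed by Capn5 (44.9), Capn1 (38.8), Capn2 (29.4), Capn7 (18.3), Capn10 (4.58), Capn8 (2.49) and Capn9 (0.154). WT_EC had the same order, with Capns1 at 67.4, Capn5 at 42.8, Capn1 at 37.7, Capn2 at 26.2, Capn7 at 18.2, Capn10 at 5.08, Capn8 at 3.69 and Capn9 at 0.251. With the longest transcript as the length, Capns1 came above Capn9 in SpdefKO_GC, Capn5 above Capn7 in both GC groups, Capn2 above Capn1 in both EC groups, and Capn2 above Capn5 in SpdefKO_EC.

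The catalytic chains were thus of a different make-up in GC and EC. Capn8 and Capn9 together made up 44.3% ± 1.62 of the summed CPM per kb of the 7 catalytic members in SpdefKO_GC and 38.9% ± 2.24 in WT_GC, against 1.92% ± 0.445 in SpdefKO_EC and 2.94% ± 0.292 in WT_EC. Capn9 alone held 34.9% in SpdefKO_GC and 28.1% in WT_GC. Capn5 held 12.8% in SpdefKO_GC and 15.8% in WT_GC, against 32.4% in SpdefKO_EC and 32.0% in WT_EC. For Capn2 the share was 6.18% in SpdefKO_GC and 5.41% in WT_GC, against 21.3% in SpdefKO_EC and 19.6% in WT_EC. The sum over the 7 was 180.3 CPM per kb in SpdefKO_GC and 158 in WT_GC, against 139 in SpdefKO_EC and 134 in WT_EC. With the longest transcript as the length, Capn8 and Capn9 made up 42.5% in SpdefKO_GC and 38.2% in WT_GC, against 2.14% in SpdefKO_EC and 3.30% in WT_EC. The share of Capn2 then became 10.2% in SpdefKO_GC and 8.92% in WT_GC, against 31.3% in SpdefKO_EC and 29.05% in WT_EC, and that of Capn5 was 13.2% in SpdefKO_GC and 16.2% in WT_GC, against 29.6% in SpdefKO_EC and 29.4% in WT_EC.

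**Figure D4:**
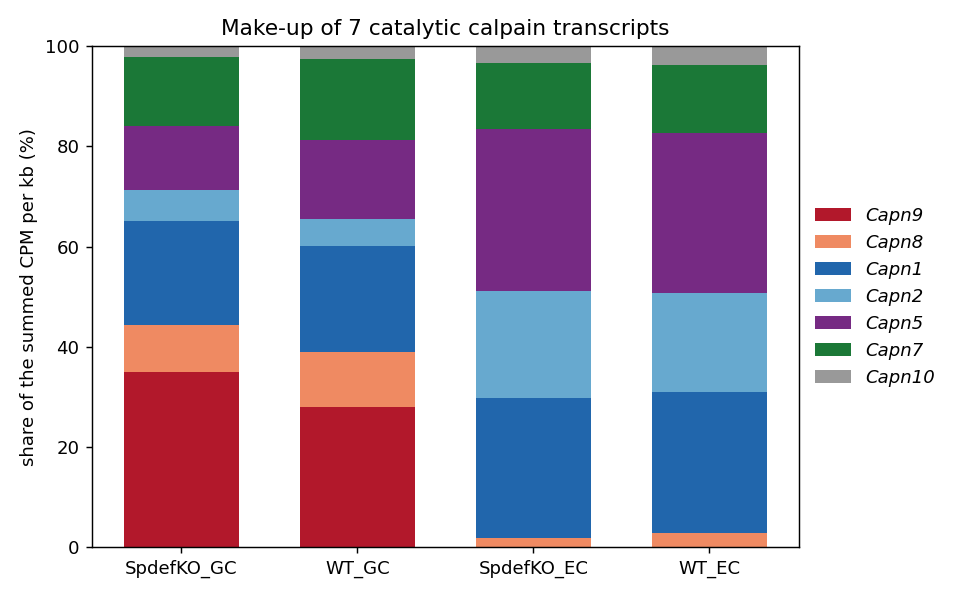
Bars stack the mean share (%) of each of the 7 catalytic members in their summed CPM per kb of merged exons, for each group of 4 libraries. Capn9 and Capn8 fill 44.3% of the bar in SpdefKO_GC and 38.9% in WT_GC, whereas Capn5 and Capn2 fill more of the EC bars.

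Of the other 8 genes of the family 7 passed the filter on low counts and were tested. Genes with an adjusted p under 0.05 by the edgeR test are called, and each count stands beside the share of all tested genes called in that direction. In SpdefKO_GC against SpdefKO_EC 3 of the 7 were higher (Capn6, Capns2 and Solh), beside 28% of all tested genes, and 1 was lower (Capn3), beside 28.4%. In WT_GC against WT_EC 1 was higher (Capns2), beside 31%, and 2 were lower (Capn3 and Capn13), beside 30.2%. In SpdefKO_GC against WT_GC 2 were higher (Capn6 and Capns2), beside 10.4%, and 0 lower, beside 11%. In SpdefKO_EC against WT_EC 0 were higher, beside 6.09%, and 1 was lower (Solh), beside 6.54%. For the interaction 1 was higher (Capn6), beside 4.88%, and 0 lower, beside 4.65%. These counts were not tested against the shares. Capn13, a little-studied classical calpain, was the most abundant per kb, with 33.2 CPM per kb in SpdefKO_GC and 28.9 CPM per kb in WT_GC. Its levels were 98.1 ± 5.38 CPM in SpdefKO_GC and 85.2 ± 8.41 CPM in WT_GC, and 88.0 ± 9.31 CPM in SpdefKO_EC and 102 ± 10.2 CPM in WT_EC. It was lower in WT_GC than in WT_EC (log2 -0.34 ± 0.09, adjusted p = 0.00344 by edgeR), and the value for SpdefKO_GC against SpdefKO_EC was 0.03 ± 0.09 (adjusted p = 0.819). Solh, the current Capn15, had a log2 difference of 0.43 ± 0.10 between SpdefKO_GC and SpdefKO_EC (adjusted p = 0.00172 by edgeR) and of -0.35 ± 0.10 between SpdefKO_EC and WT_EC (adjusted p = 0.0359, lost in several alternatives). Solh lies 1.75 Mb from Spdef on chromosome 17.

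Among the rare family members, Capn6, which lacks the active-site cysteine, rose in SpdefKO_GC. It was at 2.62, 3.54, 4.395 and 4.43 CPM in SpdefKO_GC and at 1.70, 2.28, 1.52 and 1.64 CPM in WT_GC, without overlap (log2 1.04 ± 0.24, adjusted p = 0.00469 by edgeR). In EC it averaged 1.42 ± 0.566 CPM in SpdefKO_EC and 2.02 ± 0.170 CPM in WT_EC (log2 -0.49 ± 0.27, adjusted p = 0.237). The genotype difference in GC exceeded that in EC by 1.53 ± 0.36 (adjusted p = 0.0110 by edgeR). Capns2, a second small subunit gene, was at 1.52, 1.91, 1.94 and 1.67 CPM in SpdefKO_GC and at 0.951, 0.584, 1.13 and 1.09 CPM in WT_GC. It was higher in GC than in EC in SpdefKO (log2 2.62 ± 0.31, adjusted p = 6.77e-07 by edgeR) and in WT (log2 1.16 ± 0.32, adjusted p = 0.00389). It was also higher in SpdefKO_GC than in WT_GC (log2 0.91 ± 0.25, adjusted p = 0.0132), but not without WT_GC 11 (adjusted p = 0.0516, the highest over all alternatives). By the edgeR test 6 of 6 enteroendocrine, 6 of 8 absorptive and 2 of 4 proliferation markers were also higher in SpdefKO_GC than in WT_GC. The share of all tested genes was 10.4%. Of 7 goblet markers 2 were higher and 1 lower, and of 3 stem markers 0 were higher and 1 lower. The part of cells with any of these markers in the Capn6 and Capns2 differences was not tested. Capn3, the muscle calpain, was at 0.412 to 0.900 CPM as group means and was lower in GC than in EC in SpdefKO (log2 -0.90 ± 0.36, adjusted p = 0.0387 by edgeR, lost in many alternatives) and in WT (log2 -1.02 ± 0.34, adjusted p = 0.0136). Capn11, a testis calpain, and the globin-calpain gene Adgb stayed under 1 CPM as group means and passed in no comparison, and Capn12 had 5 to 11 counts per group and was not tested.

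RNA of genes whose proteins are reported as calpain substrates was lower in GC for most of the list, as was RNA of genes of the ESCRT machinery, to which the partners of Capn7 belong. Neither list was tested as a whole against other genes. Of 20 substrate genes 12 were lower and 4 higher in SpdefKO_GC against SpdefKO_EC, beside 28.4% and 28% of all tested genes, with a median log2 value of -0.34, beside 0.0313 over all. In WT_GC against WT_EC 13 were lower and 4 higher, beside 30.2% and 31%, with a median of -0.56, beside 0.0508 over all. In WT the lowest p-values were those of the actin cross-linkers Actn4 (log2 -1.77 ± 0.10, adjusted p = 1.73e-11 by edgeR) and Actn1 (log2 1.27 ± 0.07, adjusted p = 2.14e-11), which had opposite signs, and of the coatomer gene Copb1 (log2 0.97 ± 0.06, adjusted p = 3.14e-11). In SpdefKO_GC against WT_GC 3 of 20 were higher and 1 lower, beside 10.4% and 11% of all tested genes. Those with the lowest p-values were the integrin-linking talin gene Tln2 (log2 0.92 ± 0.09, adjusted p = 6.97e-07), Copb1 (log2 -0.28 ± 0.06, adjusted p = 0.00206) and vinculin, Vcl (log2 0.49 ± 0.14, adjusted p = 0.0192). Of 16 ESCRT genes 15 were lower and 0 higher in SpdefKO_GC against SpdefKO_EC (median -0.58), and 12 were lower and 0 higher in WT_GC against WT_EC (median -0.42), beside the same shares and medians over all tested genes. Chmp1b, Ist1 and Chmp2b led in WT with log2 values of -1.23 ± 0.08, -1.17 ± 0.08 and -1.13 ± 0.09 (adjusted p = 1.50e-10, 1.70e-10 and 2.65e-09). In SpdefKO_GC against WT_GC 2 of 16 ESCRT genes were higher and 0 lower, beside 10.4% and 11% of all tested genes. The higher ones were Chmp4c (log2 0.27 ± 0.09, adjusted p = 0.0357 by edgeR) and Pdcd6ip (log2 0.19 ± 0.07, adjusted p = 0.0479). Pdcd6 had a value of -0.16 ± 0.06 (adjusted p = 0.0795).

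Other cysteine proteases of the cell were counted in the same way. Of 17 tested cathepsins, caspases and legumain 12 were lower and 2 higher in SpdefKO_GC against SpdefKO_EC, beside 28.4% and 28% of all tested genes, with a median log2 value of -0.85, beside 0.0313 over all. In WT_GC against WT_EC 11 were lower and 4 higher, beside 30.2% and 31%, with a median of -0.77, beside 0.0508 over all. The lysosomal cathepsins Ctss, Ctsl and Ctsb led in WT, with log2 values of -2.89 ± 0.08, -1.37 ± 0.08 and -0.90 ± 0.07 (adjusted p = 1.37e-15, 1.08e-11 and 7.07e-10 by edgeR). In SpdefKO_GC against WT_GC 2 were higher and 2 lower, near the 10.4% and 11% of all tested genes, led by Ctsf (log2 -2.02 ± 0.18, adjusted p = 1.57e-07), Ctsc (log2 0.45 ± 0.08, adjusted p = 5.35e-04) and Casp4 (log2 1.02 ± 0.19, adjusted p = 0.00126).

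The genes whose profiles were most like those of 3 members were sought among 10409 genes with a mean of at least 5 CPM, by the root-mean-square difference of centred log2 CPM over the 16 libraries. For Capn9 these were Atoh1, the transcription factor of the secretory lineage (0.331), Fcgbp (0.362) and St6gal1, a sialyltransferase (0.367). Atoh1 had mean levels of 364 CPM in SpdefKO_GC and 387 CPM in WT_GC, against 1.64 CPM in SpdefKO_EC and 2.21 CPM in WT_EC. For Capn8 they were Lfng, a glycosyltransferase that modifies Notch (0.195), the transporter gene Slc22a15 (0.206) and Sh3pxd2a, an adaptor protein of podosomes (0.234). Lfng averaged 41.6 CPM in SpdefKO_GC and 40.8 CPM in WT_GC, against 6.74 CPM in SpdefKO_EC and 7.88 CPM in WT_EC. For Capn5 they were Urgcp (0.0773), Spats2l (0.102) and Kctd11 (0.104), each lower in GC.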

How the data were processed

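The authors deposited raw read counts for each gene symbol and library and a second table holding a normalized signal, which was not used for any value here. STAR 2.4.0f, HTSeq 0.6.1p1, FastQC 0.11.2, DESeq2 1.14 and mm10 are listed, with no role, in the submitters' processing notes, and no source used here gives the strand setting. The 3 entries naming no gene (47.1–54.7% of counts) stayed out.

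CPM were computed over gene counts. Counts were tested with the edgeR quasi-likelihood test (edgeR 4.0.16, limma 3.58.1, R 4.3.3; robust dispersion, TMM factors, default filter by group). All 16 libraries entered 1 model with 1 coefficient per group, and 12915 genes were tested. An adjusted p (Benjamini-Hochberg) under 0.05 was called, and for the 8 members only fitted differences with their standard errors are given. Standard errors are the absolute log2 change over the square root of F and are approximate. Fitted fold changes use library sizes scaled by TMM factors (0.944 to 1.06), and CPM do not. Fitted folds therefore differ from ratios of CPM. In SpdefKO_GC against SpdefKO_EC the fitted fold was 351 for Capn9, 0.888 for Capn1 and 0.822 for Capn10. The ratios of mean CPM were 409, 0.968 and 0.899. The fit was tried on simulated counts in which genes were changed in SpdefKO_GC alone. That simulation held no broad difference between GC and EC, so it does not cover the scaling of those comparisons. No libraries of a group were alike within counting noise. Lengths come from GENCODE M21 on GRCm38, the build also called mm10. Vcl, Ctsb, Chmp4c and Capn12 (with Actn4) overlap tested genes on the other strand, so their counts are uncertain. Urgcp and Capn3 (with Ganc) each overlap a tested gene on their own strand and are uncertain too. All 8 members were named. Of the lists, calpastatin and the rest of the family were named in full, and of the others the 3 genes with the smallest adjusted p in WT_GC against WT_EC and in SpdefKO_GC against WT_GC. The members and lists were chosen with earlier results of these data known. Alternatives were other scalings, no filter, DESeq2 1.42.0, limma-voom, only the groups compared, each library left out, and other gene lengths.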

Additional observations from a re-analysis of the deposited data

Results flagged for a closer look

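In 6 of 64 gene and group pairs 1 library stood far from the other 3 of its group by Dixon's criterion, and chance alone gives about 1 in 20, or 3.2. Capn1 was at 118 CPM in WT_EC 12, against 128–129 CPM in the other WT_EC libraries. Capn5 was at 203 CPM in SpdefKO_EC 20, against 256–266 CPM in the others. Capn9 was at 0.198 CPM in the same library, SpdefKO_EC 20, against 0.424–0.439 CPM. Capn7 was at 133 CPM in SpdefKO_GC 7, against 114–117 CPM. Capns1 was at 274 CPM in WT_GC 13, against 231–237 CPM, and the lower WT_GC libraries still lay above every SpdefKO_GC library. Capn3 was at 0.368 CPM in SpdefKO_EC 8, against 0.816–0.892 CPM.

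Capn6 differed between the fractions in its genotype difference, which was 1.53 higher on the log2 scale in GC than in EC (edgeR, adjusted p = 0.0110).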

How the results depend on the processing

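No paired analysis was possible because the groups share no replicate numbers and no label ties a GC library to an EC library. No called value changed sign. Fitted with the EC groups alone, 1075 genes were called in SpdefKO_EC against WT_EC, against 1631 in the model of all groups. Over single libraries left out this count ran from 940 (without SpdefKO_EC 4; 1006 without WT_EC 17) to 2253. The cause was not tested.

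Upper-quartile factors moved the median of all genes to 0.146 for GC against EC in SpdefKO and 0.136 in WT, from 0.0313 and 0.0508 with TMM factors. The calls were then 4752 higher and 3047 lower in SpdefKO (3619 and 3666 with TMM) and 4859 and 3457 in WT (4007 and 3894). In SpdefKO_EC against WT_EC they were 533 and 1079 (787 and 844), and for the interaction 715 and 479 (630.0 and 601). Among the family genes that are no members the Solh call in EC was lost without the filter (adjusted p = 0.0583), in a fit of the EC groups alone (0.0830) and without any 1 of 5 libraries (0.0550–0.112). Adgb passed as lower in WT_GC when fitted with the WT groups alone (adjusted p = 0.00368) and with DESeq2 size factors (0.0490). The EC levels of Capn9 and the values of Capn3, Capn11, Capn12, Capns2 and Adgb rest on few counts, which limits their precision.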
